A study of Sus scrofa with 12 samples.

Results

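The expression of 9 genes of glucose production and glucose sensing was followed across the livers of 12 pigs: PC, PCK1, PCK2, FBP1, SLC37A4, SLC2A2, PKLR, GCKR and GCGR. They were found by gene symbol, which matched 9 of the 21169 rows of the gene table, 1 row for each gene, and all 9 were among the 13532 genes with enough counts to be tested. The study compared 2 Chinese pig breeds, Hezuo pigs of the cold Gansu plateau and Bama pigs, a miniature breed of the warm south, to search for genes linked to the cold resistance of Hezuo pigs. RNA depleted of ribosomal RNA came from livers taken on day 15, from 3 Hezuo pigs in the cold (-15 ± 2 °C), 3 Hezuo pigs at room temperature (23 ± 2 °C), 3 Bama pigs in the cold and 3 Bama pigs at room temperature. All received balanced feed per the labels' protocols, and the labels give neither age nor sex.

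Gluconeogenesis rebuilds glucose from lactate, amino acids and glycerol, and liver uses it to hold blood glucose steady between meals. Pyruvate carboxylase (PC) turns pyruvate into oxaloacetate inside mitochondria, and the phosphoenolpyruvate carboxykinases PCK1 (cytosolic) and PCK2 (mitochondrial) turn oxaloacetate into phosphoenolpyruvate. Fructose bisphosphatase (FBP1) bypasses the irreversible phosphofructokinase step of glycolysis, SLC37A4 brings glucose phosphate into the endoplasmic reticulum for its last hydrolysis, and SLC2A2 (GLUT2) carries glucose across the cell membrane. Liver pyruvate kinase (PKLR) runs in the opposite, glycolytic direction, GCKR binds glucokinase and holds it in the nucleus when glucose is low, and GCGR is the receptor through which glucagon raises glucose output.

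The 12 libraries held 20041285 to 30188037 gene counts. Levels are given as CPM, counts relative to library size, after TMM scaling, which evens out libraries whose totals are taken up by a few very abundant genes, with factors from 0.874 to 1.197. ALB, the albumin gene, took 1.53% to 9.78% of counts in the 6 cold libraries and 8.24% to 12.01% in the 6 libraries at room temperature. All 8 markers of hepatocytes had counts in these libraries, while the summed level of 3 skeletal muscle markers was at most 0.191 CPM and that of 5 pancreas markers at most 0.816 CPM. RNA of the Y-linked gene DDX3Y was present in all 6 Hezuo libraries and in Bama cold replicates 1 and 3, and at 0 to 3 counts in Bama cold replicate 2 and the 3 Bama libraries at room temperature. At room temperature, breed thus cannot be told apart from presence of Y-linked RNA. The cold response of Bama pigs, and its difference from that of Hezuo pigs, are partly mixed with it. In whole tissue, fewer cells of a type and less RNA per cell cannot be told apart.

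Per transcript length, PCK1 was the most abundant of the 9 genes, with a median of 640.2 FPKM over the 12 libraries and a range of 106 to 936 FPKM. PCK2 (median 282 FPKM) and FBP1 (267 FPKM) followed, then SLC37A4 (153 FPKM), PC (108 FPKM), SLC2A2 (62.6 FPKM), GCGR (40.5 FPKM), PKLR (30.5 FPKM) and GCKR (19.0 FPKM). PCK1 exceeded PCK2 in 11 of 12 libraries, whereas PCK2 exceeded FBP1 in only 6 of 12, so the order of those neighbours is not set by these data. SLC37A4 exceeded PC in 8 of 12 libraries, and GCGR exceeded PKLR in 10 of 12. FBP1 lay above SLC37A4, and SLC2A2 above GCGR, in all 12.

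**Figure D1:**
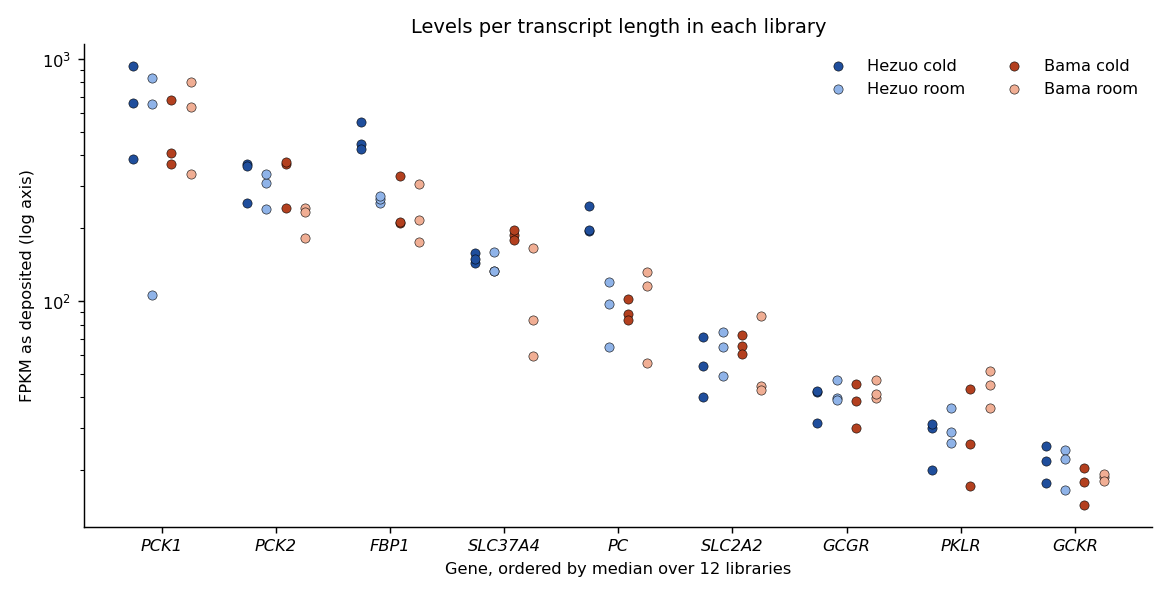
FPKM as deposited on a log axis for the 9 genes, ordered by their median, with 1 point for each of the 12 libraries coloured by group. PCK1 has the widest spread, 106 to 936 FPKM, and the Hezuo cold points of FBP1 and PC lie above those of the other groups.

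PC and FBP1, an early and a late enzyme of the pathway, were higher in Hezuo than in Bama pigs in the cold. PC had 789, 779 and 1028 CPM in Hezuo pigs in the cold, against 322, 287 and 286 CPM in Bama pigs in the cold. Its means were 865 ± 141 and 298 ± 20.3 CPM (SD, n = 3 each), a 2.9-fold difference and a log2 fold change of 1.54 ± 0.32 (SE; edgeR adjusted p = 0.0299). Each Hezuo cold library lay above each Bama cold library.

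FBP1 had 777, 709.9 and 963 CPM in Hezuo pigs in the cold, against 286, 465 and 316 CPM in Bama pigs in the cold. Its means were 817 ± 131 and 356 ± 95.8 CPM (SD, n = 3 each), a 2.3-fold difference and a log2 fold change of 1.20 ± 0.25 (SE; edgeR adjusted p = 0.0316). These groups did not overlap either. In deposited FPKM, which carry no TMM scaling, PC stood at 194, 196 and 247 in Hezuo pigs in the cold against 102, 88.3 and 83.4 in Bama pigs in the cold. In the same unit FBP1 stood at 445, 426 and 547 in Hezuo pigs in the cold against 211, 329.95 and 212 in Bama pigs in the cold.

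These were 2 of the 9 genes, where 2.76% of all genes tested passed in either direction and 1.8% passed as higher in Hezuo pigs. DESeq2, another count model, called the same 2 and 8.63% of all genes it adjusted. At an unadjusted p below 0.05 were 3 of the 9 genes and 21.1% of all genes. Libraries did not overlap for 2 of the 9 genes and for 25.2% of all genes. The median log2 fold change was 0.30 for the 9 genes and -0.0070 for all genes tested. GCKR came next, with 139.6, 93.9 and 121 CPM in Hezuo pigs in the cold against 61.8, 78.2 and 94.2 CPM in Bama pigs in the cold, and did not pass (0.60 ± 0.20, adjusted p = 0.125). The other 6 genes had log2 fold changes from -0.0093 (SLC37A4) to 0.77 (PCK1), with adjusted p from 0.392 upward.

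Each call depended on single libraries. PC lost its call without any 1 of the Hezuo cold libraries (adjusted p = 0.0697, 0.0562 and 0.0938 without replicates 1, 2 and 3) or of the Bama cold libraries (0.0970, 0.0821 and 0.0607). FBP1 lost its call without Hezuo cold replicate 1, 2 or 3 (0.0751, 0.0549 and 0.0971), Bama cold replicate 1 (0.121) or 3 (0.0672), or Hezuo replicate 1 at room temperature (0.0514). Its call held without Bama cold replicate 2, the cold library lacking Y-linked RNA (1.44 ± 0.27, adjusted p = 0.0358). Presence of Y-linked RNA as a covariate gave nearly the same values as leaving out Bama cold replicate 2, the 1 library that differs in it from its group, and is not a separate check (FBP1 adjusted p = 0.035, PC 0.082). In a fit of only the 2 cold groups PC passed (0.0232) and FBP1 did not (0.0683). Calls over all genes were 116 in that fit and 132 with the covariate, against 374 with neither. They were 107, 154 and 84 without Hezuo cold replicates 1, 2 and 3. Without Bama cold replicates 1, 2 and 3 they were 69, 131 and 409, and without Hezuo replicate 1 at room temperature 240. Over all 12 fits without 1 library, the log2 fold change stayed between 1.39 and 1.60 for PC and between 1.06 and 1.44 for FBP1.

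**Figure D2:**
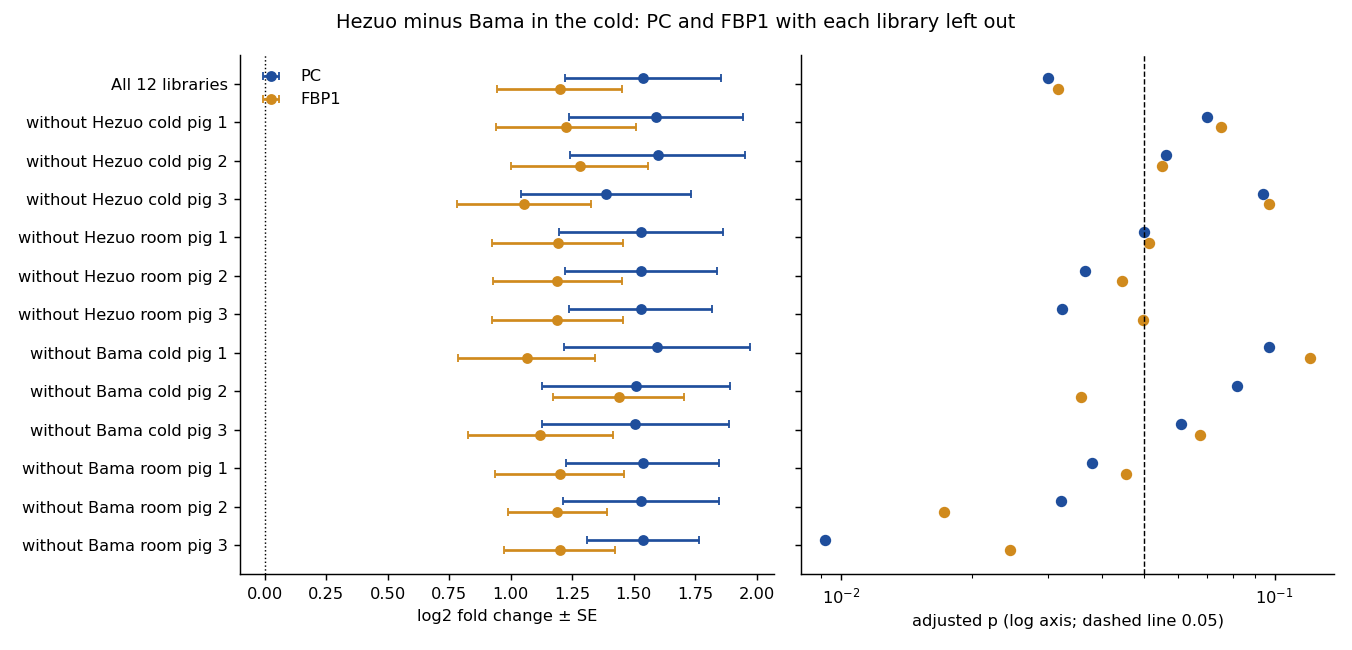
Left, the log2 fold change ± SE of PC and FBP1 between Hezuo and Bama pigs in the cold, with all 12 libraries and with each left out in turn. Right, the adjusted p of the same fits on a log axis with 0.05 dashed, where 6 of 12 fits for each gene fall past the line.

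Markers of cell types were set beside these differences. Of 8 hepatocyte markers, 0 passed in Hezuo against Bama pigs in the cold, with a median log2 fold change of 0.55 and summed levels of 67981 to 149561 CPM in Hezuo and 34831 to 99274 CPM in Bama pigs. By edgeR, 0 passed among 6 Kupffer cell and macrophage markers (median -0.51), with sums of 916 to 1861 CPM in Hezuo and 1429 to 2613 CPM in Bama pigs in the cold. For 6 stellate cell and fibroblast markers, sums were 745 to 1299 CPM in Hezuo and 645 to 1129 CPM in Bama pigs (median 0.13, 0 passing). For 4 T and NK cell markers, sums were 42.2 to 61.2 CPM in Hezuo and 62.1 to 117.3 CPM in Bama pigs, which did not overlap (median -0.67, 0 passing). For 4 endothelial markers, sums were 410.3 to 612 CPM in Hezuo and 528 to 729 CPM in Bama pigs (median -0.52, 0 passing). Red cell markers, 3 in number, had sums of 2301 to 20902 CPM in Hezuo and 234 to 3598 CPM in Bama pigs (median 2.40, 0 passing). The part of these shifts in the PC and FBP1 results was not tested.

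With cold in Hezuo pigs the same pair had the largest log2 fold changes of the 9 genes, but neither passed in edgeR over all genes tested. PC had 789, 779 and 1028 CPM in Hezuo pigs in the cold, against 417, 504 and 263 CPM in Hezuo pigs at room temperature. The means were 865 ± 141 and 394 ± 122 CPM (SD, n = 3 each), with a log2 fold change of 1.13 ± 0.31 (95% interval 0.45 to 1.82, edgeR adjusted p = 0.137). FBP1 had 777, 709.9 and 963 CPM in Hezuo pigs in the cold, against 467, 467 and 472 CPM in Hezuo pigs at room temperature. Its means were 817 ± 131 and 469 ± 2.72 CPM (SD, n = 3 each), with a log2 fold change of 0.80 ± 0.25 (95% interval 0.25 to 1.35, adjusted p = 0.178). DESeq2 called both in this comparison (adjusted p = 0.0143 for PC and 0.0431 for FBP1), along with 3.99% of all genes it adjusted.

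In Hezuo pigs edgeR called 0 of the 9 genes between the temperatures, against 0.281% of all genes tested. An unadjusted p below 0.05 was reached by 2 of the 9, PC and FBP1, and by 15.6% of all genes. Libraries did not overlap for 3 of the 9 genes, PC and FBP1 upward and GCGR downward, against 21.8% of all genes. GCGR had 113, 116 and 98.0 CPM in Hezuo pigs in the cold and 125, 123 and 134 CPM in Hezuo pigs at room temperature (log2 fold change -0.23 ± 0.19, adjusted p = 0.586). This comparison shares the Hezuo cold libraries with that between the breeds in the cold.

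**Figure D3:**
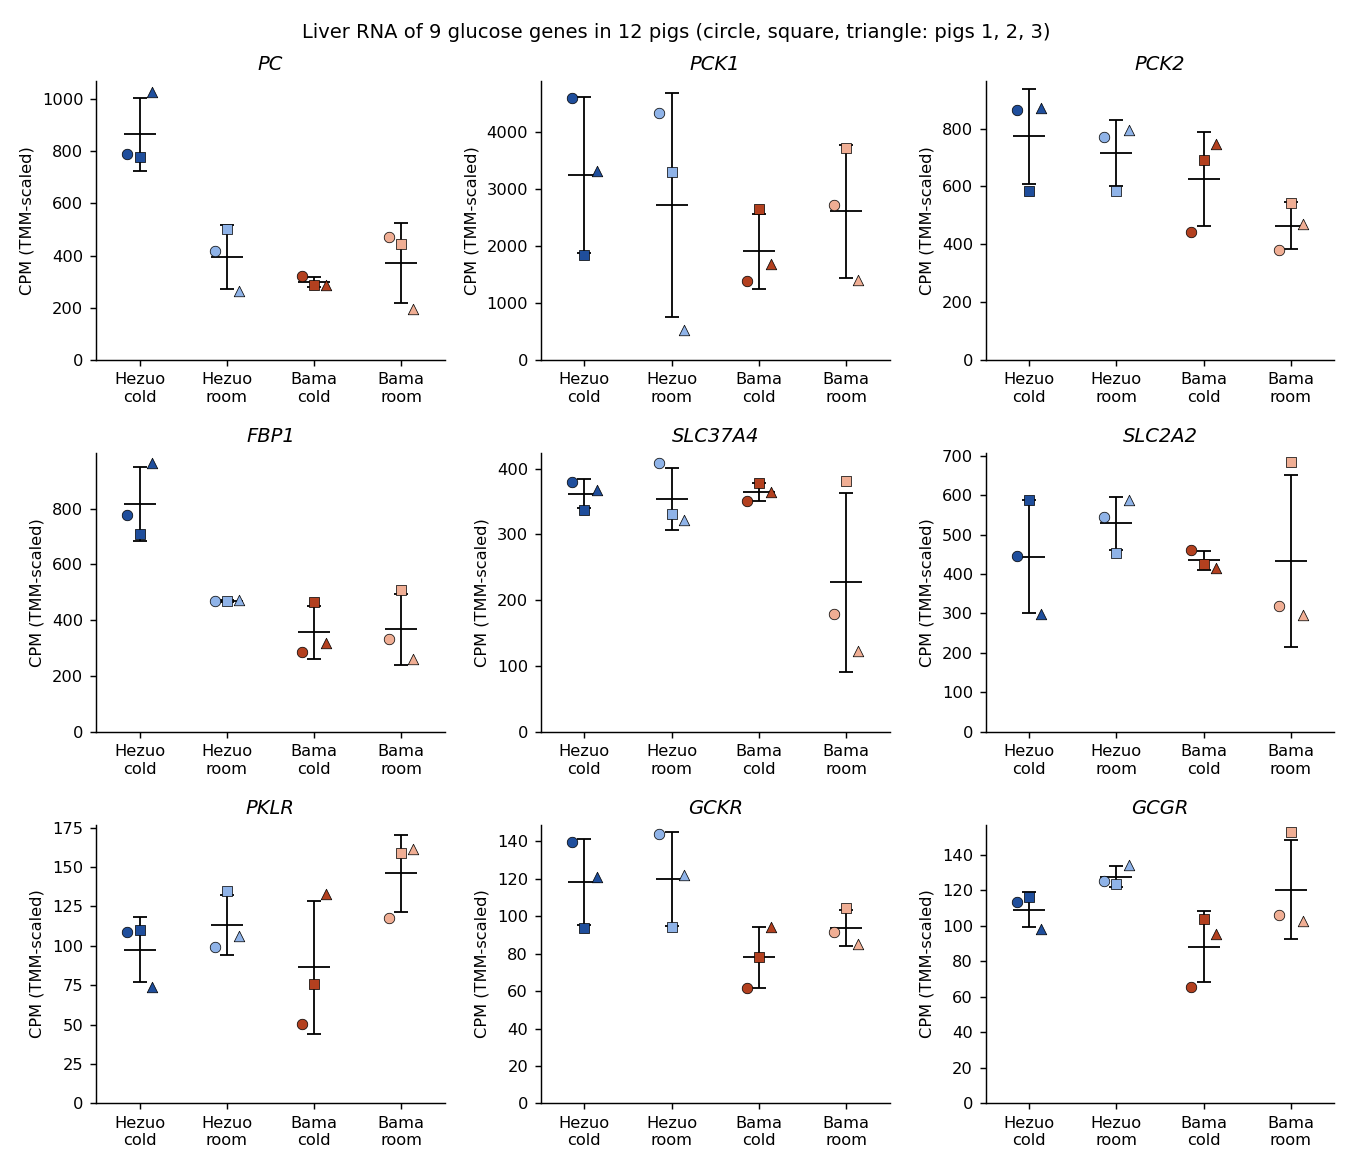
CPM of each gene in each library, with the group mean and SD as black bars and pigs 1, 2 and 3 as circle, square and triangle. PC and FBP1 stand highest in Hezuo pigs in the cold, PCK1 has 1 low library at 524 CPM, and SLC37A4 and SLC2A2 vary most among Bama pigs at room temperature.

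In Bama pigs neither PC nor FBP1 passed with cold. PC had 322, 287 and 286 CPM in Bama pigs in the cold, against 471, 445 and 194 CPM in Bama pigs at room temperature (log2 fold change -0.31 ± 0.31, adjusted p = 0.674). FBP1 had 286, 465 and 316 CPM in Bama pigs in the cold, against 331, 509 and 261 CPM in Bama pigs at room temperature (-0.044 ± 0.25, adjusted p = 0.950). The groups overlapped for both genes. The difference between the breeds in the cold response was 1.44 ± 0.44 for PC (95% interval 0.48 to 2.41) and 0.84 ± 0.35 for FBP1 (0.075 to 1.61), on the log2 scale and as Hezuo response minus Bama response. Neither passed that test of the difference (edgeR adjusted p = 0.390 and 0.581, unadjusted p = 0.00681 and 0.0342). It called 0 of the 9 genes, with 2 at an unadjusted p below 0.05, against 0.00739% and 8.02% of all genes tested. DESeq2 called 0 of the 9 and 0.863% of all genes it adjusted. For the other 7 genes the difference lay between -0.65 (SLC37A4) and 0.71 (PCK1), with adjusted p from 0.797 upward.

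**Figure D4:**
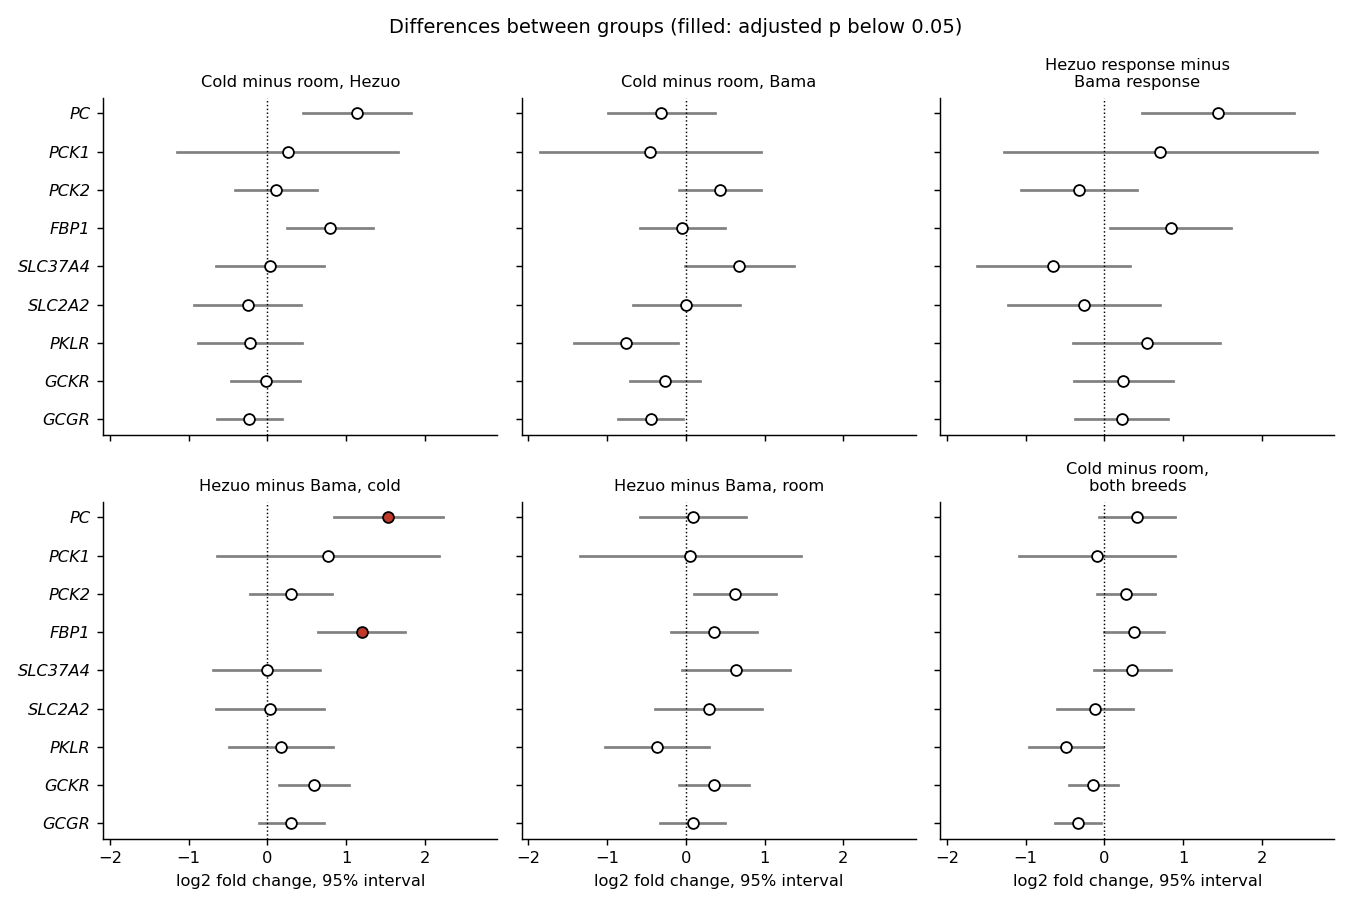
Log2 fold changes with 95% intervals for the 9 genes in the 6 comparisons, where filled points have an adjusted p below 0.05. PC and FBP1 are filled in the panel of Hezuo minus Bama pigs in the cold and no gene is filled in the other 5 panels.

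PCK1, whose transcription glucagon raises and insulin represses, varied more between pigs of a group than between groups. It had 4596, 1845 and 3312 CPM in Hezuo pigs in the cold, against 4342, 3293 and 524 CPM in Hezuo pigs at room temperature. In Bama pigs it had 1391, 2649 and 1686 CPM in the cold, against 2719, 3728 and 1397 CPM at room temperature. The groups overlapped in both breeds, and Hezuo replicate 3 at room temperature stood far below its group.

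The log2 fold change of PCK1 with cold was 0.26 ± 0.64 in Hezuo pigs (95% interval -1.14 to 1.66, adjusted p = 0.879) and -0.45 ± 0.64 in Bama pigs (-1.86 to 0.95, adjusted p = 0.780). Without Hezuo replicate 3 at room temperature, the value in Hezuo pigs turned to -0.22 ± 0.46. Its SD within groups was 0.99 on the log2 scale, wider than that of 96.7% of all genes tested, against a median of 0.27 over all genes. In Hezuo pigs the interval reaches a ratio of 3.16, so that an increase of up to that size cannot be told from none with 3 pigs a group.

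PCK2 varied less within groups, with an SD of 0.32. It had 864, 585 and 872 CPM in Hezuo pigs in the cold, against 769, 585 and 795 CPM in Hezuo pigs at room temperature (log2 fold change 0.11 ± 0.24, adjusted p = 0.858). In Bama pigs it had 442, 691 and 748 CPM in the cold, against 381, 542 and 471 CPM at room temperature (0.43 ± 0.24, adjusted p = 0.410). The groups overlapped in both breeds. At room temperature all 3 Hezuo libraries lay above all 3 Bama libraries, with means of 717 ± 114 and 465 ± 80.8 CPM (SD, n = 3 each), and the difference did not pass (0.63 ± 0.24, adjusted p = 0.178). Presence of Y-linked RNA separates these groups in the same way.

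As a share of the summed FPKM of both carboxykinases, PCK1 made up 71.8%, 60.3% and 64.7% in Hezuo pigs in the cold and 73.0%, 73.0% and 24.0% in Hezuo pigs at room temperature. In Bama pigs it made up 60.3%, 64.7% and 52.1% in the cold and 77.6%, 76.8% and 58.9% at room temperature. PCK1 was the smaller of the pair only in Hezuo replicate 3 at room temperature, at 0.316 times PCK2. These shares are described without a test.

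SLC37A4, the transporter of glucose phosphate, had 379, 337 and 368 CPM in Hezuo pigs in the cold and 408, 331 and 322 CPM in Hezuo pigs at room temperature (log2 fold change 0.033 ± 0.31, adjusted p = 0.973). In Bama pigs it had 350.2, 378 and 364 CPM in the cold, against 178, 381 and 122 CPM at room temperature (0.68 ± 0.31, adjusted p = 0.322). Bama replicate 2 at room temperature stood with the cold libraries and apart from the other libraries of its group.

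Without that 1 library, SLC37A4 passed in Bama pigs in the cold against room temperature (1.28 ± 0.19, edgeR adjusted p = 0.0122). It then also passed as higher in Hezuo than in Bama pigs at room temperature (1.22 ± 0.19, adjusted p = 0.0104, against 0.64 ± 0.31 and 0.289 with all libraries) and with cold over both breeds (0.66 ± 0.12, adjusted p = 0.0207, against 0.36 ± 0.22 and 0.357). Without Bama replicate 1 or 3 at room temperature it did not pass: the values with cold in Bama pigs were 0.53 (0.533) and 0.38 (0.643), those between the breeds at room temperature 0.49 (0.556) and 0.34 (0.586), and those over both breeds 0.28 (0.506) and 0.21 (0.566). Over all genes, leaving out replicate 2 gave 129 calls with cold in Bama pigs, against 125 with all libraries. It gave 593 against 146 between the breeds at room temperature, and 457 against 526 with cold over both breeds. Without replicate 2, the difference between the breeds in the cold response of SLC37A4 was -1.24 ± 0.25 (adjusted p = 0.121). In the cold, Hezuo and Bama pigs stood at 362 ± 21.8 and 364 ± 13.8 CPM (SD, n = 3 each).

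SLC2A2, the glucose transporter of the hepatocyte membrane, had 447, 587 and 299.5 CPM in Hezuo pigs in the cold and 545, 455 and 587 CPM in Hezuo pigs at room temperature (log2 fold change -0.25 ± 0.31, adjusted p = 0.731). In Bama pigs it had 462, 426 and 417 CPM in the cold, against 319, 685 and 296 CPM at room temperature (0.0045 ± 0.31, adjusted p = 0.997). The cold libraries of Bama pigs lay between the libraries at room temperature, where replicate 2 was again the highest.

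PKLR, the glycolytic member, had 50.4, 75.9 and 133 CPM in Bama pigs in the cold, against 118, 159 and 161 CPM in Bama pigs at room temperature. The means were 86.4 ± 42.3 and 146 ± 24.4 CPM (SD, n = 3 each), the groups overlapped, and the difference did not pass (log2 fold change -0.76 ± 0.30, edgeR adjusted p = 0.256). In Hezuo pigs it had 109, 110.1 and 73.7 CPM in the cold and 99.2, 135 and 106 CPM at room temperature (-0.22 ± 0.30, adjusted p = 0.762). Over both breeds the change with cold was -0.49 ± 0.21 (adjusted p = 0.195).

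The ratio of PC to PKLR, taken in FPKM within each library, was 6.50, 6.30 and 12.3 in Hezuo pigs in the cold and 3.76, 3.32 and 2.24 in Hezuo pigs at room temperature. It was 5.87, 3.45 and 1.93 in Bama pigs in the cold and 3.63, 2.56 and 1.08 in Bama pigs at room temperature. All 3 Hezuo cold libraries lay above the other 9, with Bama cold replicate 1 nearest. The ratio combines genes whose differences are given above and was not tested.

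**Figure D5:**
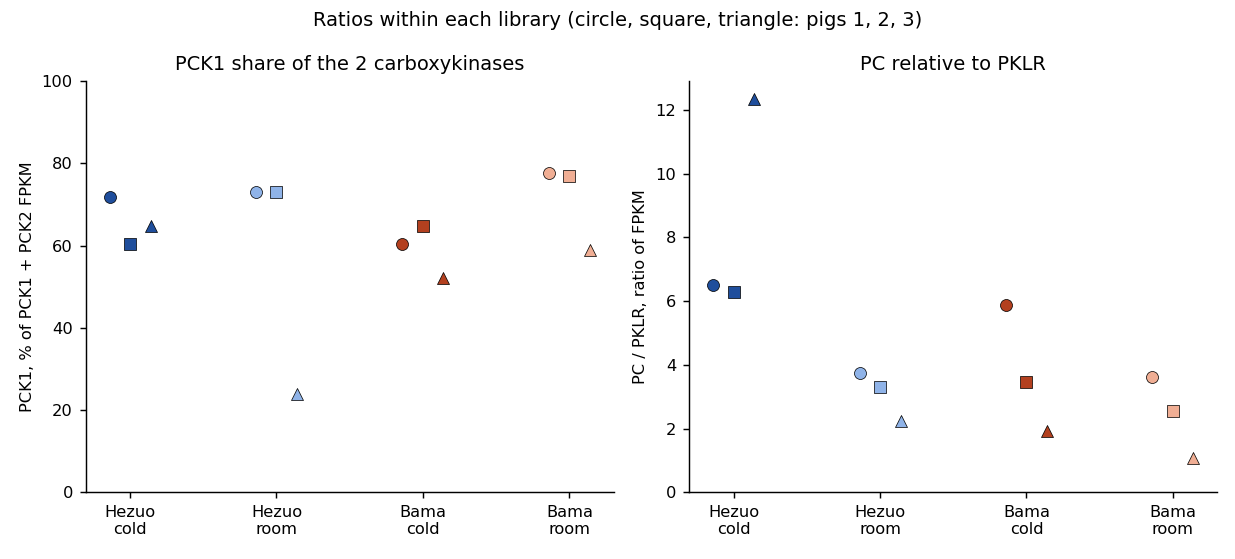
Left, PCK1 as a percentage of the summed FPKM of PCK1 and PCK2 in each library. Right, the ratio of PC to PKLR in FPKM. The PCK1 share falls to 24.0% in 1 Hezuo library at room temperature, and the PC to PKLR ratio is 6.30 or more in the 3 Hezuo libraries in the cold.

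GCGR, the glucagon receptor, had the smallest SD of the 9 genes within groups, 0.25 on the log2 scale. It had 65.7, 104 and 95.4 CPM in Bama pigs in the cold, against 106, 152 and 102 CPM in Bama pigs at room temperature (log2 fold change -0.45 ± 0.19, adjusted p = 0.283). Over both breeds its change with cold was -0.34 ± 0.13 (unadjusted p = 0.0282, adjusted p = 0.159). GCKR had 139.6, 93.9 and 121 CPM in Hezuo pigs in the cold and 144, 94.1 and 122 CPM in Hezuo pigs at room temperature (-0.022 ± 0.20, adjusted p = 0.972). In Bama pigs it had 61.8, 78.2 and 94.2 CPM in the cold and 91.3, 104 and 85.4 CPM at room temperature (-0.26 ± 0.20, adjusted p = 0.568).

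In the remaining comparisons 0 of the 9 genes passed. With cold in Bama pigs, 0.924% of all genes tested were called, 2 of the 9 (PKLR and GCGR) and 15.8% of all genes had an unadjusted p below 0.05, and libraries did not overlap for 0 of the 9 against 21.3% of all genes. For Hezuo against Bama pigs at room temperature, 1.08% of all genes were called, 1 of the 9 (PCK2) and 19.8% of all genes had an unadjusted p below 0.05, and 1 of the 9 did not overlap against 23.8% of all genes. With cold over both breeds, 3.89% of all genes were called, 2 of the 9 (PKLR and GCGR) and 23.5% of all genes had an unadjusted p below 0.05, and 0 of the 9 did not overlap against 2.28%. DESeq2 called 0 of the 9 in each of these 3 comparisons, and 5%, 7.17% and 10.5% of all genes it adjusted.

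At room temperature the log2 fold changes of Hezuo against Bama pigs were 0.092 ± 0.31 for PC, 0.057 ± 0.64 for PCK1 and 0.35 ± 0.25 for FBP1, beside the 0.63 ± 0.24 of PCK2 given above. SLC2A2 stood at 0.29 ± 0.31, GCKR at 0.36 ± 0.20 and GCGR at 0.086 ± 0.19. PKLR was the 1 gene with a negative value, -0.37 ± 0.30, although PC, PCK1 and GCGR were also below 0 when libraries were scaled by their totals. The median over the 9 genes was 0.29, against -0.0033 over all genes tested. For Hezuo against Bama pigs in the cold the log2 fold changes not yet given were 0.30 ± 0.24 for PCK2, 0.033 ± 0.31 for SLC2A2, 0.17 ± 0.30 for PKLR and 0.30 ± 0.19 for GCGR.

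With cold over both breeds the log2 fold changes were 0.41 ± 0.22 for PC, 0.38 ± 0.18 for FBP1, 0.27 ± 0.17 for PCK2 and -0.098 ± 0.45 for PCK1. SLC2A2 had -0.12 ± 0.22 and GCKR -0.14 ± 0.14. The median over the 9 genes was 0.033 with cold in Hezuo pigs and -0.26 with cold in Bama pigs, against -0.013 and -0.011 over all genes tested. These medians compare groups that share no library, and the difference between them was not tested.

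Other genes of the pathway were counted in 3 lists, which were chosen with earlier results of these data known. No list was tested as a set against the share of all genes. Among 27 genes of gluconeogenic and glycolytic enzymes, 26 were tested, and 25 were tested of 27 genes through which substrates enter and 42 of 42 genes of hormone signalling and transcriptional control. In Hezuo against Bama pigs in the cold, 3 of the 25 entry genes were higher and 0 lower (median 0.29), while edgeR passed 0 of the 26 enzymes and 0 of the 42 control genes (medians -0.036 and -0.014), against 2.76% of all genes called and 1.8% higher. An unadjusted p below 0.05 was reached by 10 of the 25 entry genes, 5 of the 26 enzymes and 5 of the 42 control genes, against 21.1% of all genes.

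The 3 entry genes were both subunits of the mitochondrial pyruvate carrier, which delivers the substrate of PC, and GPD1, which links glycerol phosphate to the pathway. MPC2 averaged 68.3 ± 8.53 CPM in Hezuo and 36.6 ± 2.60 CPM in Bama pigs in the cold (SD, n = 3 each; 0.90 ± 0.13, edgeR adjusted p = 0.00889), and it kept its call whichever of the 12 libraries was left out. MPC1 averaged 157 ± 35.2 CPM in Hezuo and 94.7 ± 11.0 CPM in Bama pigs (0.73 ± 0.17, adjusted p = 0.0467). It did not pass when libraries were scaled by their totals (0.42, 0.0892), and it kept its call only without Hezuo cold replicate 2 or Hezuo replicate 2 at room temperature (up to 0.163 in the other 10 fits). GPD1 averaged 254 ± 45.0 CPM in Hezuo and 81.5 ± 34.1 CPM in Bama pigs (1.64 ± 0.30, adjusted p = 0.0213). Its call was lost without Hezuo cold replicate 1 (0.0630) or 3 (0.0674) or Bama cold replicate 2 (0.0540). In a fit of only the 2 cold groups MPC2 passed (0.0363), and GPD1 (0.0711) and MPC1 (0.113) did not. With the Y-linked covariate MPC2 passed (0.0232), and GPD1 (0.0540) and MPC1 (0.103) did not. Calls over all genes fell to 132 with that covariate and to 116 in the fit of only the cold groups, against 374.

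With cold, LDHB, a lactate dehydrogenase subunit, was the 1 entry gene of 25 that rose in Hezuo pigs, to 24.5 ± 1.72 CPM in the cold against 11.96 ± 2.30 CPM at room temperature (SD, n = 3 each; 1.03 ± 0.16, edgeR adjusted p = 0.0409). That call was lost in 6 of 12 fits, those without Hezuo cold replicate 2 or 3, any Hezuo library at room temperature, or Bama cold replicate 2 (0.0676 to 0.148). SDSL, a serine dehydratase, was the 1 of 25 that rose in Bama pigs, to 45.6 ± 10.2 CPM in the cold against 18.1 ± 7.16 CPM at room temperature (1.34 ± 0.27, adjusted p = 0.0441). It kept its call in 3 of 12 fits, those without Hezuo replicate 2 at room temperature, Bama cold replicate 2 or Bama replicate 2 at room temperature, with adjusted p up to 0.154 in the others. SDSL also did not pass in a fit of only the 2 Bama groups (0.138) or with Y-linked RNA as a covariate (1.08 ± 0.35, 0.884), and LDHB did not with that covariate (0.0679). Over all genes, the covariate left 1 call with cold in Bama pigs, against 125, and 3 in Hezuo pigs, against 38. The fit of only the Bama groups left 12. In either breed, edgeR called 0 of the 26 enzymes and 0 of the 42 control genes with cold, against 0.281% of all genes in Hezuo and 0.924% in Bama pigs. An unadjusted p below 0.05 was reached in Hezuo pigs by 9 of the 25 entry genes, 4 of the 26 enzymes and 10 of the 42 control genes, against 15.6% of all genes. The counts in Bama pigs were 10, 6 and 4, against 15.8% of all genes.

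Over both breeds, 3 of 25 entry genes, 1 of 26 enzymes and 2 of 42 control genes rose with cold, and 0 fell, against 3.89% of all genes called (264 higher and 262 lower). The counts of enzymes and control genes are near that share, and the count of entry genes was not tested against it. LDHB rose by 0.70 ± 0.11 on the log2 scale (edgeR adjusted p = 0.0126) and kept its call without any single library. LDHA, the other main lactate dehydrogenase subunit, rose by 0.44 ± 0.10 (0.0317), SDSL by 0.85 ± 0.19 (0.0335) and PGAM1, a phosphoglycerate mutase shared by glycolysis and gluconeogenesis, by 0.45 ± 0.10 (0.0392). PRKAR2A, a regulatory subunit of the kinase that carries the glucagon signal, rose by 0.46 ± 0.09 (0.0216), and HNF4A, a transcription factor of hepatocytes, by 0.98 ± 0.24 (0.0452).

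Among these averages, PRKAR2A lost its call without Hezuo replicate 2 (0.0538) or Bama replicate 3 (0.0552) at room temperature. LDHA lost it without Hezuo cold replicate 2 or 3, Hezuo replicate 1 or 2 at room temperature, Bama cold replicate 1 or Bama replicate 3 at room temperature (0.0563 to 0.0828). PGAM1 kept it in 4 of 12 fits (without Hezuo cold replicate 1, Hezuo replicate 1 at room temperature, Bama cold replicate 2 or Bama replicate 1 at room temperature). SDSL kept it in 3 (without Hezuo cold replicate 1, Bama cold replicate 2 or Bama replicate 2 at room temperature) and HNF4A in 2 (without Hezuo replicate 3 at room temperature or Bama cold replicate 2). With presence of Y-linked RNA as a covariate, the 6 genes had adjusted p from 0.106 to 0.334. Within groups, that covariate differs only through Bama cold replicate 2, and calls over all genes fell to 6, against 526 without it. HNF4A, which rose, is itself 1 of the 8 hepatocyte markers, as is ALB, whose share of all counts is given above. Beside these changes, the sum of these markers ran from 67981 to 149561 CPM in Hezuo and from 34831 to 99274 CPM in Bama pigs in the cold. At room temperature it ran from 154473 to 180555 CPM in Hezuo and from 115744 to 131170 CPM in Bama pigs. ALB, at 1.53% to 9.78% of counts in the cold and 8.24% to 12.01% at room temperature, is a large part of that sum. The sum thus does not show how the other markers moved. How far its shift bears on these results was not tested.

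Among themselves, PC and FBP1 were the pair of members whose log2 CPM ran most closely together over the 12 libraries (Pearson r = 0.85), and r was 0.48 for their deviations from the group means. Within groups the closest pairs were PCK2 with GCKR (r of deviations 0.86) and FBP1 with SLC37A4 (0.78). These are the highest r of all pairs of members, a choice that by itself favours high r. The spread of SLC37A4 lay mostly in Bama pigs at room temperature. There SLC37A4 ran from 122 to 381 CPM and FBP1 from 261 to 509 CPM, and replicate 2 was the highest for both. PCK1 followed PC (0.68) more closely than it did PCK2 (0.14). In both breeds, replicate 3 at room temperature was the lowest of its group for PCK1 and for PC. These stood at 524 and 263 CPM in Hezuo and at 1397 and 194 CPM in Bama pigs. The r of PCK1 with PC without these libraries was not taken. These values describe 12 libraries, whose genes share depth and scaling.

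Of 11328 other named genes with a mean of at least 1 CPM, those most like PCK1 over the 12 libraries were GPR107 (r = 0.85), NDUFA6 (0.84), MEAF6 (0.83), KANK1 (0.82) and RBPMS (0.82). Without Hezuo replicate 3 at room temperature, the library with the lowest PCK1, these r were 0.69, 0.81, 0.78, 0.76 and 0.67. Those most like PKLR were FDFT1 (0.92), the squalene synthase gene, then RBM6 (0.91), TCEA3 (0.88), CAPN5 (0.86) and GATAD2B (0.86). Both lists hold the highest of 11328 values over 12 libraries, a choice that by itself favours high r. They are a description and were not tested.

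Circular RNAs of these genes, closed loops counted by reads across a back-splice junction, were rare. The circRNA table listed 16 of its 24177 circRNAs for 6 of the 9 genes, with 65 back-splice counts in all 12 libraries, and PCK2, SLC37A4 and PKLR had none listed. By group, those counts were 16 of 134921 in Hezuo pigs in the cold, 13 of 143716 in Hezuo pigs at room temperature, 15 of 149074 in Bama pigs in the cold and 21 of 198269 in Bama pigs at room temperature. Of the 16, 12 were seen in 1 library only.

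Relative to their gene counts, the 6 genes had 13.9 (PC) to 226 (GCKR) back-splice CPM, with a host's own gene counts as the denominator, against a median of 3383 over 5599 host genes. PCK1 had 23.9, or 12.6 without the 9 of its 19 back-splice counts that were antisense to the gene. The most abundant, with 13 counts in 4 libraries, was an exonic circRNA of SLC2A2 at chromosome 13, 109610376 to 109614105 on the minus strand. An exonic circRNA of FBP1 at chromosome 10, 27607898 to 27617946 on the plus strand, had 11 counts in 5 libraries. For PCK1 the most abundant was antisense to the gene, at chromosome 17, 57936113 to 57936472 on the minus strand, with 7 counts in 5 libraries. GCKR had one with 5 counts at chromosome 3, 111650447 to 111665485, GCGR one with 3 counts at chromosome 12, 1151731 to 1152133, and PC one with 2 counts at chromosome 2, 5566608 to 5574480. Coordinates are as the circRNA table gives them, and its genome build is not given in the sources used here. These counts were too few for a test between groups, and none was run.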

How the data were processed

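Liver RNA of 12 pigs was sequenced after removal of ribosomal RNA, with digestion of the second cDNA strand, per the labels' protocols. The submitters' processing notes name fastp. Which aligner, counter, circRNA caller and genome build were used is not given in the sources used here. The authors deposited estimated counts per gene, not normalized, of which 9.48% of nonzero values were fractional, and these were rounded. FPKM values, also as deposited by the authors, served to compare levels between genes and for ratios and shares within each library. They also served to show PC and FBP1 in the cold groups without TMM scaling, and none was tested. For circRNAs the authors deposited back-splice counts, here summed and described with no test, and RPM values, which were not used.

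Counts of all 12 libraries were fitted in edgeR 4.0.16 (R 4.3.3, limma 3.58.1) with 4 groups: TMM scaling, filterByExpr (minimum count 10, minimum total 15), robust quasi-likelihood F tests with 8 residual degrees of freedom, and Benjamini-Hochberg adjustment over 13532 genes at 0.05. An SE is the size of a log2 fold change over the root of its F. Cold was compared with room temperature within each breed and averaged over both, Hezuo with Bama within each temperature, and the cold responses of the breeds with each other. The test was checked on simulated data. Correlations used log2 CPM with a prior count of 2. Alternatives were DESeq2 1.42.0, other scalings, no filter, a replicate block, a Y-linked covariate (DDX3Y above 100 counts), fits of only the groups compared and fits without 1 library.

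The members and lists were chosen with earlier results of these data known. All members are named, with list genes that passed (at most 4 per list and comparison), the 5 genes of at least 1 mean CPM most like PCK1 and PKLR, and the most abundant circRNA of each host. Of the list symbols, GPT and GK matched no row. The labels use the same pig numbers at both temperatures of a breed, and no pair of libraries was merged.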

Additional observations from a re-analysis of the deposited data

How the results depend on the processing

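The counts of members called moved under 3 of the 7 alternatives that kept all libraries and in 8 of the 12 fits without 1 library. DESeq2 called 2 (PC and FBP1) with cold in Hezuo pigs, where edgeR called 0. For Hezuo against Bama pigs in the cold, edgeR called 2, and 1 was called with the Y-linked covariate (FBP1) and 1 in a fit of only those groups (PC). Leaving out each library in turn gave 0 to 2 there, and 0 to 1 (SLC37A4) with cold in Bama pigs, for Hezuo against Bama pigs at room temperature and with cold over both breeds. Over all genes, these fits gave 69 to 423 calls between the breeds in the cold, against 374 with all libraries. They gave 8 to 593 at room temperature, against 146, and 18 to 133 with cold in Bama pigs, against 125. With cold they gave 0 to 66 in Hezuo pigs, against 38, and 130 to 606 over both breeds, against 526. Scaling by library totals in place of TMM put the median log2 fold change of all genes at -0.32 between the breeds in the cold, at -0.22 at room temperature and at 0.14 with cold in Bama pigs. It turned the split of all calls to 188 higher and 1990 lower between the breeds in the cold, against 244 and 130 with TMM, and PC (1.22, adjusted p = 0.0243) and FBP1 (0.88, 0.0298) still passed. The split was 55 and 263 with totals against 91 and 55 with TMM at room temperature, 228 and 59 against 52 and 73 with cold in Bama pigs, 44 and 9 against 27 and 11 with cold in Hezuo pigs, and 896 and 220 against 264 and 262 with cold over both breeds. DESeq2 split 522 and 500 at room temperature.

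The labels do not say that a number marks shared animals. Deviations of same-numbered pigs of a breed were little correlated (r from -0.083 to 0.148 over 6 pairs), and 8 of 12 libraries matched best the library of their own number. DDX3Y had 2 counts at room temperature and 2284 in the cold for Bama pig 1, and 0 and 3769 for Bama pig 3. A single animal would not show such a difference. For Bama pig 2 DDX3Y had 3 counts at room temperature and 0 in the cold, and the Hezuo libraries had 1331 to 2407. For those numbers DDX3Y cannot tell shared from separate animals. Pig number was also fitted as a replicate block. Each number was shared by both breeds, so the block does not check pairing within a breed. With it, all-gene calls fell to 0, against 38, with cold in Hezuo pigs and to 35, against 146, between the breeds at room temperature. The 9 genes kept the counts given above. LDHB with cold in Hezuo pigs (0.0808) and SDSL with cold in Bama pigs (0.0929) and over both breeds (0.0619) did not pass with the block.

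Signs of log2 fold changes turned only where no test had passed, and the cause was not tested. Under library totals these were GCKR with cold in Hezuo pigs (0.028), FBP1 with cold in Bama pigs (0.12), PCK1 (-0.15), PC (-0.11) and GCGR (-0.12) between the breeds at room temperature, PCK2 (-0.0045), SLC2A2 (-0.27) and PKLR (-0.11) between the breeds in the cold, and PCK1 with cold over both breeds (0.017). With the replicate block they were PCK1 between the breeds at room temperature (-0.080) and with cold over both breeds (0.11), and SLC2A2 between the breeds in the cold (-0.019). With the Y-linked covariate they were PCK1 (0.019), FBP1 (0.34) and SLC2A2 (-0.026) with cold in Bama pigs, SLC37A4 between the breeds in the cold (0.019), the difference in cold response of GCGR (-0.013), and PCK1 with cold over both breeds (0.14).

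Leaving out 1 library gave ranges that cross 0 for 14 results. With cold in Hezuo pigs these were PCK1 (-0.22 to 0.77), PCK2 (-0.0058 to 0.28), SLC37A4 (-0.022 to 0.15) and GCKR (-0.16 to 0.14). With cold in Bama pigs they were FBP1 (-0.28 to 0.27) and SLC2A2 (-0.21 to 0.50). Between the breeds at room temperature they were PCK1 (-0.46 to 0.54), PC (-0.22 to 0.31) and GCGR (-0.017 to 0.28), and in the cold SLC37A4 (-0.053 to 0.028), SLC2A2 (-0.23 to 0.24) and PKLR (-0.10 to 0.63). With cold over both breeds they were PCK1 (-0.33 to 0.16) and SLC2A2 (-0.24 to 0.13). The 9 genes had at least 1208 counts in each library, whereas their circRNA counts were too few for a comparison.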
